A study of Mus musculus with 2 samples.

Results

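Chemokine transcripts of microglia were examined in the brains of PSAPP mice given the dual orexin receptor antagonist lemborexant (LEM) or vehicle (VEH). The 10 genes are *Ccl2*, *Ccl7*, *Ccl12*, *Ccl3*, *Ccl4*, *Ccl5*, *Ccl6*, *Ccl9*, *Cxcl10* and *Cxcl16*, taken by name from the 32285 genes of the count table, and all 10 were present. PSAPP mice carry the APPswe and PS1δE9 transgenes and deposit amyloid, and both groups carried them. Mice received LEM at 30 mg/kg/day or VEH by daily oral gavage for 30 days from 9 months of age and were studied at 10 months. Live CD45loCD11b+DAPI- cells were sorted from cortex and hippocampus, the cells of 5 mice per group were pooled, and each pool was sequenced as 1 10x Genomics 5′ library. With 1 library per treatment there was no replicate and no test, and a difference between libraries is a difference between 2 pools of mice.

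Chemokines are small secreted proteins that steer leukocytes through G protein-coupled receptors. Microglia are among the cells that make them in the brain, and the genes are inducible, often through NF-kB or interferon signalling. CCL2, CCL7 and CCL12 are ligands of CCR2, the receptor that brings inflammatory monocytes to tissue. CCL3, CCL4 and CCL5 draw monocytes and T cells, CCL6 and CCL9 act through CCR1, and CXCL10 binds CXCR3 on T cells. CXCL16 is a transmembrane chemokine for CXCR6 that can be shed from the cell surface.

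The VEH library held 18374 cells and 116229678 unique molecular identifiers (counts), and the LEM library 24392 cells and 160752298 counts, with medians of 5971 and 6034 counts per cell. The microglial markers *Ctss*, *C1qa*, *C1qb*, *Cx3cr1* and *P2ry12* each had a count in 98.4 to 99.3% of the cells of both libraries. The 8 markers of T and NK cells summed to 10.2 CPM (counts per 1000000) in VEH and 13.4 in LEM, and no cell met their gate. Nearly all of this was *Klrd1*, at 10.1 and 13.3 CPM with a count in 5.34% and 7.38% of cells, while *Cd3d*, *Trbc2* and *Cd8a* were each below 0.1 CPM and *Cd3e*, *Trac*, *Nkg7* and *Gzmb* had 0 counts. Summed markers of border-associated macrophages (BAM) stood at 6.37 CPM in VEH and 9.16 in LEM, with all 6 genes detected. Those of monocytes and neutrophils stood at 8.25 and 9.91 CPM, with 3 and 5 of 6 genes detected, and those of choroid plexus epithelium at 444 and 1338 CPM, with 7 of 7 detected in both. In cells outside the gates of these other cell types, the log2 ratios of LEM over VEH given below for *Ccl6* (-0.76), *Ccl5* (2.53), *Ccl9* (-0.48) and *Cxcl16* (0.38) were as large as in all cells. The pools held mice of both sexes, and the number of each sex in a pool is not known here.

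Of the 10 genes, 8 lie in tandem groups on mouse chromosome 11 (GRCm38 build, GENCODE M21). *Ccl2* (chr11:82035571-82037453), *Ccl7* (chr11:82045712-82047525) and *Ccl12* (chr11:82101845-82103400), all on the plus strand, span 67.8 kb. *Ccl5* (chr11:83525778-83530518), *Ccl9* (chr11:83572919-83578636), *Ccl6* (chr11:83587882-83593087) and *Ccl3* (chr11:83647844-83649355) on the minus strand and *Ccl4* (chr11:83662584-83664683) on the plus strand span 139 kb. The groups are 1422 kb apart. *Cxcl16* lies elsewhere on the chromosome (chr11:70453983-70459984, minus strand), and *Cxcl10* on chromosome 5 (chr5:92346638-92348889, minus strand). Genes on the other strand overlap *Ccl2* (*Gm17268*), *Ccl6* (*E230016K23Rik*), *Cxcl10* (*Art3*) and *Cxcl16* (*Zmynd15*), and reads of such partners cannot be told apart where the counting did not use strand.

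RefSeq promoter sequence (GRCm38.p6) was at hand for 5 of the 10 genes. The 250 bases before the start of the following 4 are shown because *Cxcl10* and *Ccl12* were highest in interferon-responsive cells, and *Ccl6* and *Ccl9*, neighbours on chromosome 11, were both lower in the LEM library. Capitals mark matches to 3 motifs searched on both strands: the interferon-stimulated response element (GAAA, any 2 bases, then GAAA), AP-1 (TGANTCA) and the NF-kB consensus.
*Cxcl10* (chr5:92348890-92349139, minus strand): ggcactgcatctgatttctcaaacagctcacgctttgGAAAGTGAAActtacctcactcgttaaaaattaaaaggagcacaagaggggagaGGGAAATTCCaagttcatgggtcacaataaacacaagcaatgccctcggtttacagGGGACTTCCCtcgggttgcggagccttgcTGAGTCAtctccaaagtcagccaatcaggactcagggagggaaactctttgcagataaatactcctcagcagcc
*Ccl12* (chr11:82101595-82101844, plus strand): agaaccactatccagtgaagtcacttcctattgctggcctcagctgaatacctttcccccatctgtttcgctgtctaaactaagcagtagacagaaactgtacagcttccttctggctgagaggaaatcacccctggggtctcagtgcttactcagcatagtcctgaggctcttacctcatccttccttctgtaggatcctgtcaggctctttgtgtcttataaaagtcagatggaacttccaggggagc
*Ccl6* (chr11:83593088-83593337, minus strand): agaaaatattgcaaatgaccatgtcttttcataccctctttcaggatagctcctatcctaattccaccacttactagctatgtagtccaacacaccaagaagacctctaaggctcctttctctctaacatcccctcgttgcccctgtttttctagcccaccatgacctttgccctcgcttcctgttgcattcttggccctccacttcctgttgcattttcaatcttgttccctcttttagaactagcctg
*Ccl9* (chr11:83578637-83578886, minus strand): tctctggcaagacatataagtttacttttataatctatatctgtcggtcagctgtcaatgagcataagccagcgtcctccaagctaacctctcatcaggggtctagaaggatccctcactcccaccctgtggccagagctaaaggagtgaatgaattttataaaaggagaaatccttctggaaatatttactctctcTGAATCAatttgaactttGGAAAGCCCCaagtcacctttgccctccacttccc
*Cxcl10* had 1 response element beginning 213 bases before the start, NF-kB matches at 159 and 103 bases and an AP-1 match at 74 bases. *Ccl9* had an AP-1 match at 53 bases and an NF-kB match at 35 bases before its start. *Ccl12*, *Ccl6* and *Ccl3* (not shown) had no match in this window. None of these matches overlapped. Of all 32851 promoters of the table, 2.98% held the response element, 3.90% the NF-kB consensus and 6.75% the AP-1 motif. A match describes letters and is not a shown binding site.

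The first comparison was of the level of each chemokine between the treatments. *Ccl5* was higher and *Ccl6* lower in the LEM library by more than 1.5-fold, and these were 2 of the 10 genes. Among all 11910 genes compared, 1.2% were at least 1.5-fold higher, 0.932% at least 1.5-fold lower and 2.13% either. The median log2 ratio of LEM over VEH was -0.07 over the 10 genes and 0.01 over all genes compared. *Cxcl10* alone of the 10 had a count in under 1% of the cells of both libraries, so 9 of the 10 were among the genes compared. *Ccl5* was among them only through LEM, the library in which it was higher. Where both libraries had to reach 1% of cells, 11629 genes and 7 of the 10 were left, *Ccl6* was the 1 past 1.5-fold, and 1.54% of those genes were. Ranges below are exact 95% intervals, which cover counting error only, not the spread between mice. The ranges of CPM and of ratios take each count as independent and so also leave out the spread between cells. They are too narrow where few cells hold many of the counts.

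*Ccl6* stood at 252 CPM in VEH and 148 in LEM, which is 1.70-fold lower (log2 ratio -0.76, -0.79 to -0.74). It was found in 49.9% of VEH cells (49.1 to 50.6) and 39.0% of LEM cells (38.4 to 39.6), and in 27.3% and 18.0% after every cell was thinned to 2000 counts. Cells with a count held 3.19 counts on average in VEH and 2.51 in LEM, so both the share of cells and the counts per cell were lower. The sexes of the pooled mice could be parted by *Xist* and Y-linked counts. *Ccl6* was lower in LEM by nearly the same ratio in female (-0.78) and male cells (-0.79).

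*Ccl9*, next to *Ccl6* on the chromosome, stood at 50.8 CPM in VEH and 36.6 in LEM (log2 ratio -0.47, -0.53 to -0.42). A count was found in 20.4% and 16.1% of cells. It was lower in LEM in female (-0.39) and male cells (-0.59). *Cxcl16* went the other way, at 69.4 CPM in VEH and 90.2 in LEM (log2 ratio 0.38, 0.34 to 0.42), with a count in 30.5% and 37.5% of cells. By sex, the ratio was 0.40 (female) and 0.36 (male). *Ccl9* and *Cxcl16* were held at 1 or 2 counts by most cells that had them, at 1.58 and 1.5 counts of *Ccl9* and 1.44 and 1.58 of *Cxcl16* per positive cell.

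Of the CCR2 ligands, *Ccl12* and *Ccl2* were within 0.1 of each other on the log2 scale between libraries and *Ccl7* was lower in LEM. *Ccl12* stood at 272 and 271 CPM (log2 ratio -0.01, -0.03 to 0.01), with a count in 39.8% of VEH and 43.5% of LEM cells. *Ccl2*, the main monocyte attractant, stood at 62.7 and 59.1 CPM (-0.09, -0.13 to -0.04), in 13.5% and 13.2% of cells. *Ccl7* was scarce, at 5.36 and 4.19 CPM (-0.35, -0.51 to -0.19), in 1.00% and 0.873% of cells. Male cells gave log2 ratios of -0.22 for *Ccl2* and -0.60 for *Ccl7*, and female cells gave 0.04 and -0.11, with intervals that include 0. *Ccl7* was past 1.5-fold lower in homeostatic-gated cells (-0.62, -0.83 to -0.42), lower in DAM-gated (-1.29, from 20 and 11 counts) and mitotic-gated cells (-1.14, from 19 and 14) and higher in BAM-gated cells (1.36, from 12 and 75). In homeostatic-gated cells the ratio was -0.90 in male and -0.06 (-0.40 to 0.28) in female cells. DAM-gated male cells held 20 and 3 counts and female cells 0 and 4. In mitotic-gated cells these were 18 and 12 (male) and 1 and 2 (female).

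Of the second group on chromosome 11, *Ccl3* stood at 420 CPM in VEH and 404 in LEM (-0.06, -0.08 to -0.04) and *Ccl4* at 517 and 470 (-0.14, -0.15 to -0.12). Both were found in about the same share of cells in the libraries, 30.3% and 31.0% for *Ccl3* and 29.5% and 29.7% for *Ccl4*. *Ccl5* stood at 1.80 CPM in VEH and 10.5 in LEM, 5.81-fold higher in LEM (log2 ratio 2.54, 2.33 to 2.75), from 209 and 1680 counts. It was found in 0.473% of VEH cells (0.379 to 0.584) and 1.22% of LEM cells (1.09 to 1.37). By sex, the log2 ratio was 3.67 (female) and 1.22 (male). *Cxcl10* stood at 9.60 CPM in VEH and 10.9 in LEM (0.19, 0.08 to 0.30), in 0.544% and 0.730% of cells. Its ratio was -0.18 in female cells (-0.37 to 0.00) and -0.37 in male cells (-0.55 to -0.20), where cells with counts of both sexes or of neither were left out. The male direction was set by 1 VEH cell that held 329 of the 557 male VEH counts. Without the highest male cell of each library the ratio was 0.34 (0.10 to 0.58), and without the highest female cells it was -0.25 (-0.47 to -0.02).

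**Figure D1:**
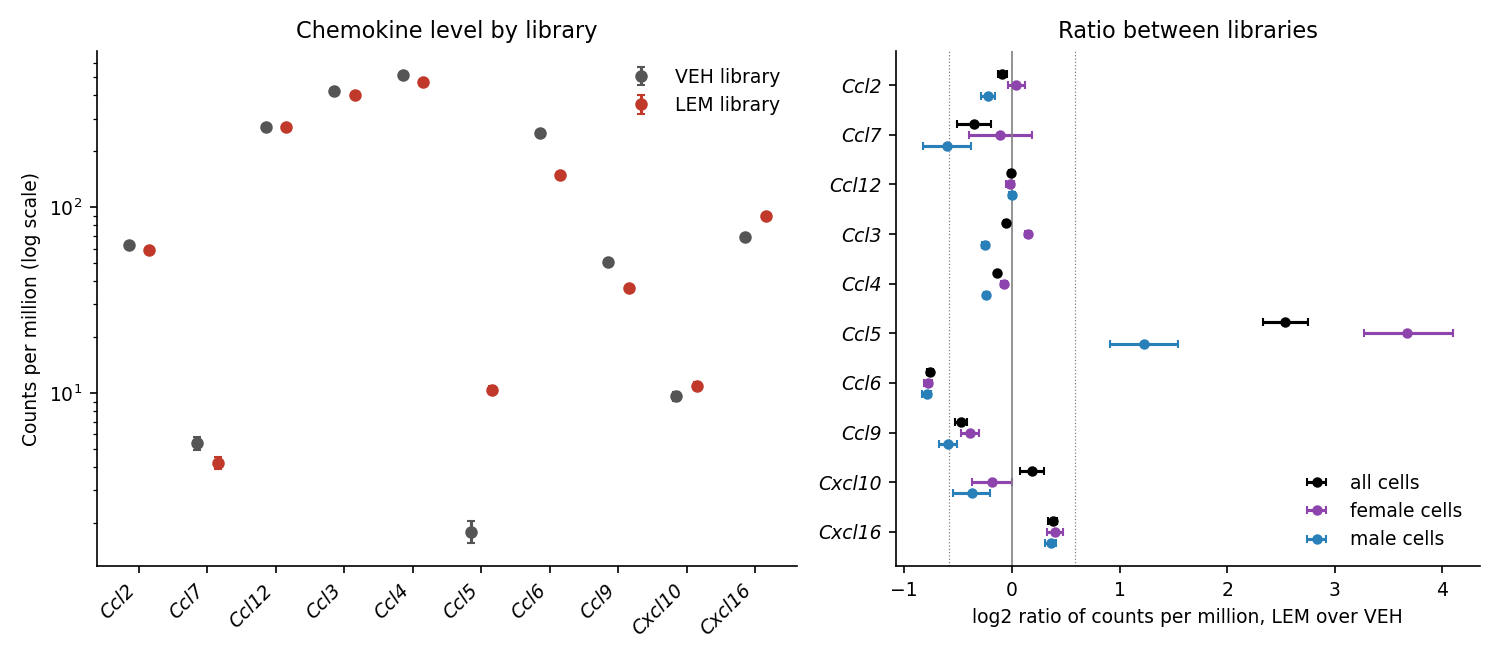
Left, level of each chemokine in the VEH and LEM library in CPM on a log axis, and right, the log2 ratio of LEM over VEH in all cells, female cells and male cells. Bars are exact 95% counting intervals and dotted lines mark 1.5-fold. *Ccl5* (2.54) and *Ccl6* (-0.76) lie past the lines in all cells, and *Ccl3* lies on opposite sides of 0 in female (0.15) and male cells (-0.25).

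A level can come from many cells or from a few, and the 10 genes differed in this. Cells with at least 10 counts of *Cxcl10* were 18 in VEH and 30 in LEM, and held 86.6% and 82.2% of its counts. The highest of them, the same male, mitotic-gated VEH cell, held 329 counts, 29.5% of the gene's counts there. Of the 18 and 30 cells, 13 in VEH and 22 in LEM fell in the interferon gate described below. For *Ccl5*, 2 VEH cells and 31 LEM cells had at least 10 counts, and the LEM cells held 65.6% of the counts. A single female LEM cell held 379 counts, or 22.6%. Of the 31 cells, 14 were called female and 7 male, and 29 had a count of *P2ry12* and 31 of *C1qa*. Without all cells that held at least 10 *Ccl5* counts the log2 ratio of LEM over VEH was 1.29, and it was 1.5 with each cell capped at 5 counts. *Ccl3* and *Ccl4* were also concentrated, with 71.8% and 79.1% of their VEH counts in the 1699 and 1765 cells with at least 10. In contrast, such cells held 2.46% of the *Ccl9* and 1.33% of the *Cxcl16* counts in VEH.

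**Figure D2:**
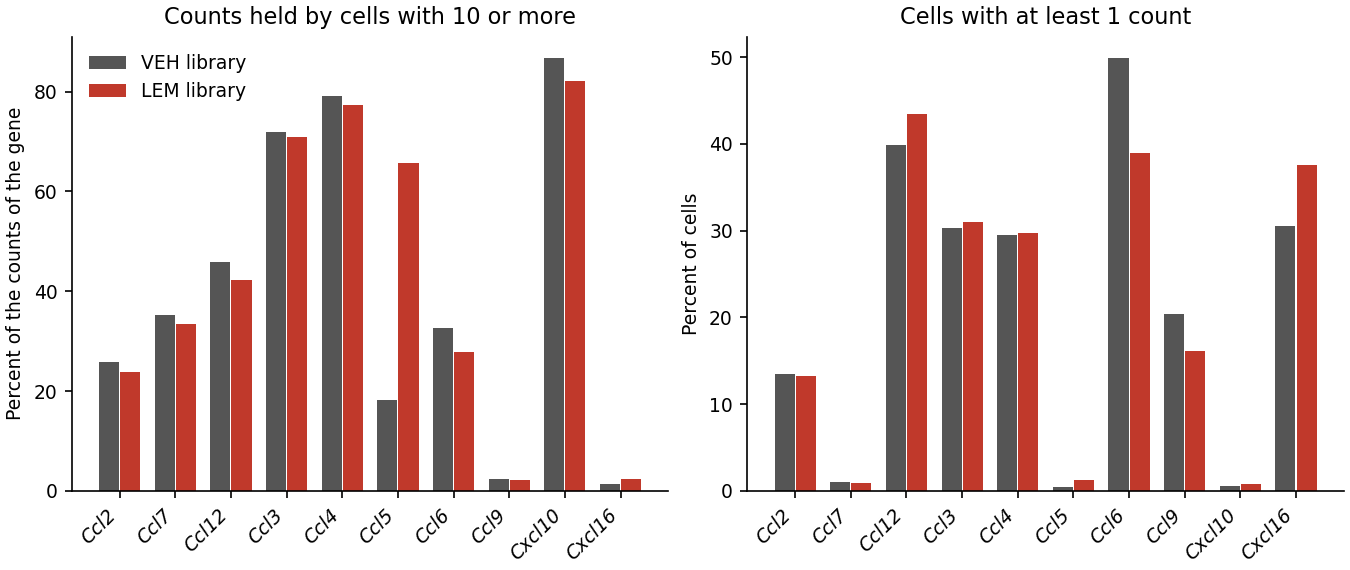
Left, percent of the counts of each gene held by cells with 10 or more counts of it, and right, percent of cells with at least 1 count, as bars for the VEH and LEM library. *Cxcl10* combines the highest share on the left (86.6% in VEH) with a share of 0.544% of cells on the right, while *Cxcl16* has 1.33% on the left and 30.5% on the right.

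Free RNA in droplets can give counts to cells that do not express a gene. The choroid plexus gate (*Ttr* and *Enpp2* at 1% or more of a cell's counts) held 53 VEH and 148 LEM droplets, most of them with microglial transcripts. In the 54 of them that had no count of *P2ry12* or *Cx3cr1* (median 4445.5 counts), *Ccl2*, *Ccl7*, *Ccl3*, *Ccl4*, *Ccl5*, *Cxcl10* and *Cxcl16* were found in 0, which allows a share of up to 5.56%. *Ccl12* was found in 3, *Ccl6* in 2 and *Ccl9* in 2. The shares of *Ccl2*, *Ccl3*, *Ccl4* and *Cxcl16* in the libraries were above that limit. It rests mostly on LEM, since 11 of the droplets came from VEH and 43 from LEM. *P2ry12* and *Cx3cr1* are themselves microglial transcripts, so requiring 0 counts of both can leave out droplets with more free microglial RNA. The limit and the shares in these droplets are therefore no ceiling on free RNA. The 3 droplets with *Ccl12* (6.98%, 1.46 to 19.1) and the 2 with *Ccl9* (4.65%, 0.568 to 15.8) were all from LEM. The library's share of *Ccl12*, 43.5%, was above this range. That of *Ccl9*, 16.1%, lay barely above the upper end of its range, 15.8%. The droplets were shallower (median 4026 counts against 6034), so the *Ccl9* share cannot be told from free RNA in this way. Both droplets with *Ccl6* were from VEH (18.2%, 2.28 to 51.8), against 0 of the 43 from LEM. The range from so few VEH droplets takes in the 49.9% of VEH cells with *Ccl6*, so that share cannot be told from free RNA in this way. For LEM the range ends at 8.22%, and 39.0% of LEM cells had *Ccl6*. The shares of *Ccl5*, *Ccl7* and *Cxcl10* were under the limit and cannot be told from free RNA by share alone. *Ttr*, at 403 CPM in VEH and 1227 in LEM, had a count in 0.109% and 0.0454% of cells outside the choroid plexus gate. The part of free RNA in the chemokine counts was not tested.

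The chemokines were next compared between microglial states. Cells were gated on counts of marker genes that include none of the 10 chemokines. The homeostatic gate held 82.2% of VEH and 79.0% of LEM cells. Disease-associated microglia (DAM), which gather at amyloid plaques, were gated on *Cst7*, *Lpl*, *Itgax*, *Spp1* and *Gpnmb* (at least 6 counts of at least 3 genes). This gate held 403 VEH and 518 LEM cells. The interferon gate (at least 10 counts of at least 4 of *Ifit1*, *Ifit2*, *Ifit3*, *Isg15*, *Irf7*, *Rsad2*, *Oasl2* and *Usp18*) held 199 and 352, the BAM gate 24 and 66 and the mitotic gate 129 and 199. The gates are cuts on a range: 181 VEH and 234 LEM cells lay within 1 count of the DAM cut, 54 and 92 of the interferon cut, 13 and 12 of the BAM cut and 29 and 30 of the mitotic cut. DAM-gated cells held a median of 21 and 20 DAM marker counts and 0 interferon marker counts, and interferon-gated cells 22 and 21 interferon and 0 DAM marker counts. DAM-gated cells were deeper, at a median of 11626 and 12227.5 counts against 5880 and 5914 in homeostatic-gated cells, so levels are given in CPM, relative to the total of the same cells.

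In DAM-gated cells 5 of the 10 genes were at least 2-fold above homeostatic-gated cells in both libraries, and 3.08% of all genes tested were. *Ccl6* went from 189 to 1146 CPM in VEH (6.06-fold) and from 106 to 817 in LEM (7.69-fold), and was found in 94.0% and 88.4% of DAM-gated cells. Its DAM levels had intervals of 1116 to 1177 CPM in VEH and 795 to 840 in LEM. *Ccl3* went from 311 to 1215 CPM in VEH (3.91-fold) and from 305 to 1224 in LEM (4.02-fold), with DAM intervals of 1184 to 1247 and 1197 to 1252. *Ccl4* was 4.46-fold higher in VEH and 3.48-fold in LEM, and *Cxcl16* 2.55-fold and 2.30-fold. *Ccl5* was 10.9-fold and 21.1-fold higher, but 379 of its 400 counts in DAM-gated LEM cells came from 1 cell, and without the highest cell of each library the folds were 4.38 and 1.11. With each cell capped at 5 counts, *Ccl3*, *Ccl6* and *Cxcl16* passed and *Ccl4* and *Ccl5* did not. *Ccl9* was 1.51-fold and 2.26-fold higher. *Ccl12*, at 0.764 and 0.659 times the homeostatic level, and *Ccl2*, at 0.861 and 0.881 times, were lower in both libraries. At 2-fold 0 of the 10 were lower in both (5.06% of all genes tested).

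In interferon-gated cells 7 of the 10 were at least 2-fold higher in both libraries, against 2.39% of all genes tested. The 7 include *Cxcl10*, which had a count in under 1% of cells and so was not among the genes tested. *Cxcl10*, itself a classical interferon-induced gene, stood at 1.66 CPM in homeostatic-gated and 305 in interferon-gated VEH cells, and at 1.11 and 449 CPM in LEM, with intervals of 278 to 334 and 426 to 474 in interferon-gated cells. It was found in 9.55% and 13.1% of interferon-gated cells, from 19 VEH and 46 LEM cells. The highest of these cells held 120 of the 479 VEH counts and 191 of the 1359 LEM counts. Female cells gave a log2 ratio of LEM over VEH of -0.79 (-1.01 to -0.56) in this gate, and male cells one of 0.85 (0.58 to 1.13). The higher LEM level of *Cxcl10* in this gate was thus not shared by the sexes. *Ccl12* stood at 217 CPM in homeostatic-gated and 3060 in interferon-gated VEH cells (14.1-fold) and at 218 and 2186 CPM in LEM (10.0-fold), with intervals of 2974 to 3147 and 2133 to 2239 in interferon-gated cells, and 89.9% and 86.9% of interferon-gated cells had it. *Ccl2* was 4.53-fold and 3.79-fold higher, and *Ccl7* 6.86-fold and 13.1-fold. *Ccl4* was 3.28-fold and 3.53-fold higher and *Ccl3* 2.28-fold and 2.27-fold. *Ccl5* was 12.4-fold higher in VEH, from 17 counts, of which 1 cell held 11, and 28.6-fold in LEM, from 260. With counts per cell capped at 5, *Ccl2*, *Ccl7*, *Ccl12*, *Ccl5* and *Cxcl10* passed and *Ccl3* and *Ccl4* did not (2.29% of all genes tested passed). *Ccl6*, *Ccl9* and *Cxcl16* were between 1.22-fold and 1.90-fold in both libraries, and 0 of the 10 were at least 2-fold lower (0.731% of all genes tested).

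BAM-gated cells, defined by *Mrc1*, *Cd163*, *Pf4*, *Lyve1*, *F13a1* and *Cbr2*, were few. Of the 10 genes 3 were at least 2-fold higher in both libraries (3.09% of all genes tested) and 0 were at least 2-fold lower (4.86%). *Ccl12* stood at 1117 CPM in VEH and 790 in LEM, 5.15-fold and 3.62-fold above homeostatic-gated cells, and *Cxcl16* was 3.05-fold and 2.14-fold higher. *Ccl7* was 11.1-fold and 44.1-fold higher, at 51.8 CPM (26.7 to 90.4) and 133 CPM (105 to 167), but from 2 of 24 VEH cells and 12 of 66 LEM cells. With counts per cell capped at 5, *Ccl7* and *Cxcl16* passed and *Ccl12* did not (log2 ratio 0.88 in VEH and 1.06 in LEM), and in female cells alone *Ccl12* and *Cxcl16* passed and *Ccl7* did not. The female BAM-gated cells were only 6 in VEH and 16 in LEM. They held 0 *Ccl7* counts in both libraries, and 5 and 26 *Cxcl16* counts. In mitotic-gated cells that did not meet the interferon gate, 4 of the 10 were at least 2-fold higher in both libraries (9.72% of all genes tested) and 0 at least 2-fold lower (3.95%). They were *Cxcl10*, from 5 and 34 counts, and the CCR2 ligands, *Ccl2* by 2.6-fold and 2.15-fold, *Ccl7* by 2.47-fold and 2.20-fold and *Ccl12* by 3.23-fold and 2.70-fold. *Cxcl10* was not among the genes tested, and its log2 ratio in VEH had an interval that includes 0 (1.30, -0.34 to 2.56). In the whole mitotic gate the same 4 were higher (9.89% of all genes tested) and 0 lower (4.07%).

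**Figure D3:**
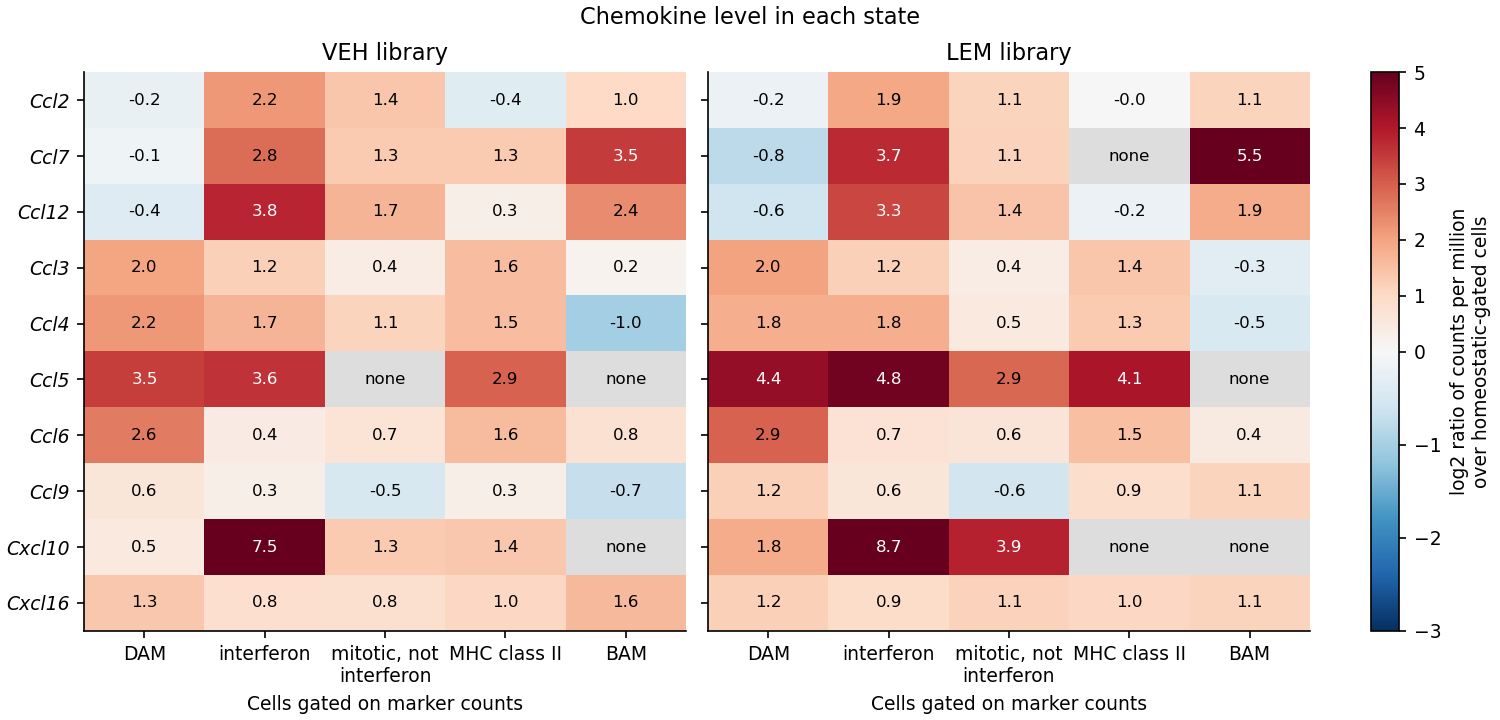
log2 ratio of the CPM of each chemokine in gated cells over homeostatic-gated cells, for the VEH (left) and LEM (right) library. Cells marked none held 3 or fewer counts, and the colour scale ends at 5. *Ccl6* is highest in the DAM column among genes found in many cells (2.6 and 2.94), *Cxcl10* in the interferon column (7.53 and 8.66) and *Ccl7* in the BAM column (3.48 and 5.46).

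*Ccl6* and *Cxcl16* thus passed 2-fold in DAM-gated but not interferon-gated cells, and *Ccl2*, *Ccl7*, *Ccl12* and *Cxcl10* in interferon-gated but not DAM-gated cells, while *Ccl3* and *Ccl4* passed it in both. In female cells alone this split changed for *Cxcl16*, which passed in interferon-gated cells (log2 ratio 1.17 in VEH and 1.29 in LEM), and for *Ccl3*, which did not (1.33 and 0.89). In male cells alone it changed for *Cxcl10*, which passed in DAM-gated cells, from 9 VEH and 14 LEM counts. With the sexes together *Ccl5* also passed in both gates, but in DAM-gated LEM cells through 1 cell, without which it stood at 1.11-fold (log2 0.15, -0.56 to 0.78). The difference between the gates was not tested. In the other microglia, which met no gate, *Ccl3* stood at 2.49-fold (VEH) and 2.12-fold (LEM) over homeostatic-gated cells and *Ccl4* at 2.56-fold and 2.22-fold. *Cxcl10* stood there at 5.42-fold and 7.3-fold and *Ccl5* at 4.54-fold and 7.28-fold. The higher level of these genes was thus not particular to the DAM and interferon gates. *Ccl6* was found at 1146 CPM in DAM-gated and 251 in interferon-gated VEH cells, and at 817 and 177 in LEM. *Ccl12* was found at 166 and 3060 CPM in VEH and at 144 and 2186 in LEM. In each library the intervals of these pairs of values do not overlap, but they leave out the spread between cells and between mice.

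The levels were also followed over the number of marker counts per cell, in cells thinned to 2000 counts. *Ccl6* was higher at each step of DAM marker counts, from 187 CPM at 0 through 680 at 2 to 3 to 1320 at 6 or more in VEH, and from 106 through 409 to 1118 in LEM. *Ccl3* and *Ccl4* did not keep this order. *Ccl3* stood at 1388 CPM at 2 to 3 counts and 1209 at 6 or more in VEH, and at 1198 and 1291 in LEM. *Ccl4* stood at 1816 and 1357 CPM in VEH and at 1491 and 1448 in LEM. *Ccl12* went from 227 CPM at 0 interferon marker counts to 1573 at 4 to 9 and 8055 at 10 or more in VEH, and to 1678 and 4660 in LEM. *Cxcl10* was at 0 CPM at 4 to 9 interferon marker counts in VEH (117 cells) and at 433 in LEM (202 cells), and at 1258 and 956 at 10 or more (64 and 103 cells).

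**Figure D4:**
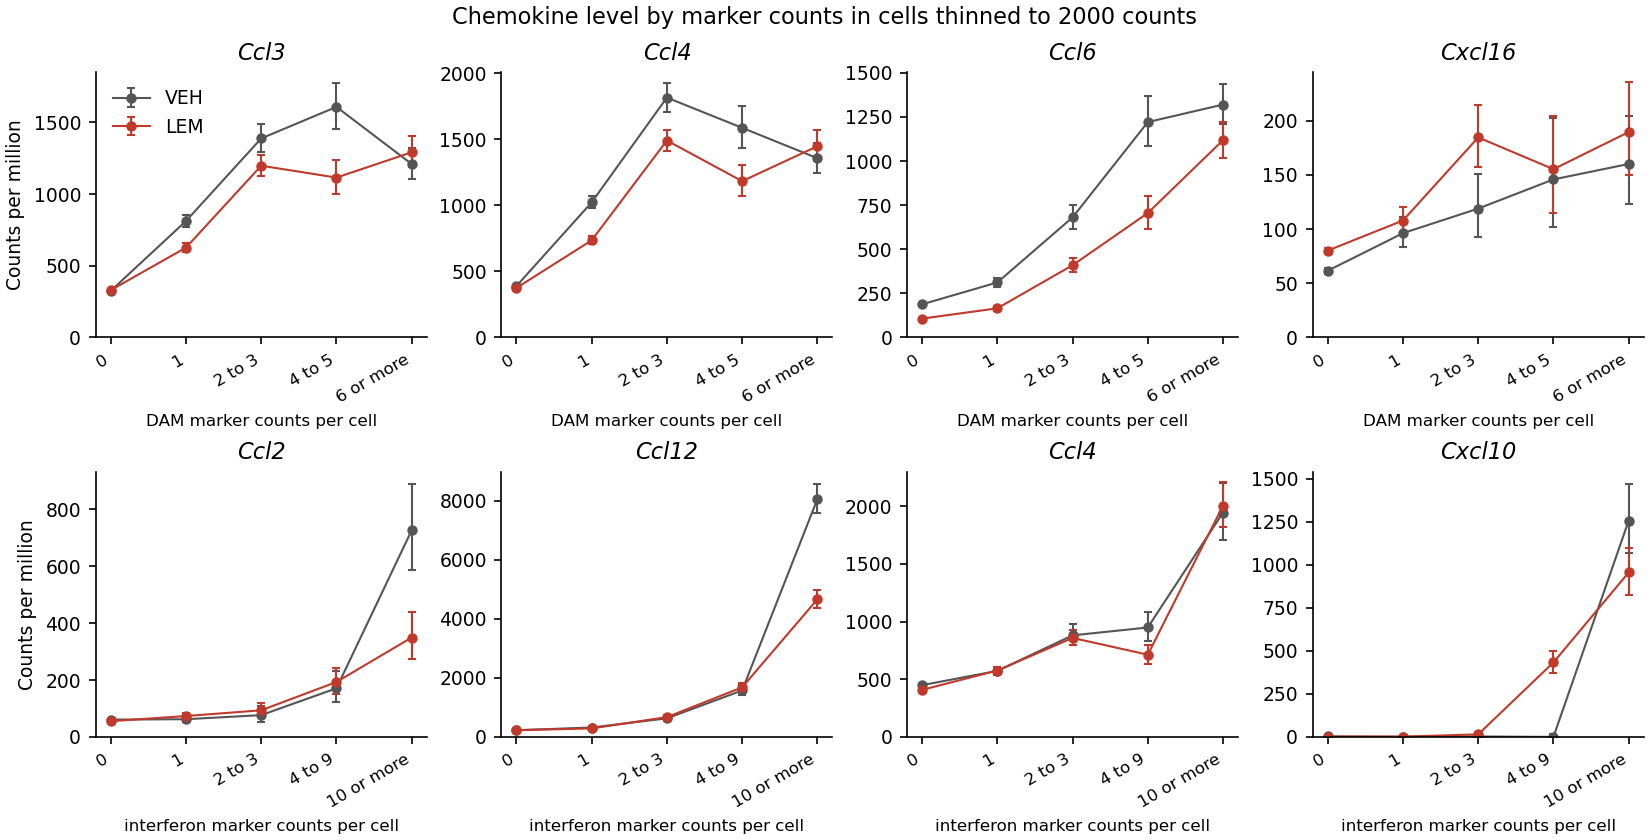
CPM of 4 chemokines by DAM marker counts per cell (top) and of 4 by interferon marker counts per cell (bottom), in cells thinned to 2000 counts, for the VEH and LEM library. Bars are exact 95% counting intervals. *Ccl6* goes from 187 to 1320 in VEH, *Ccl3* and *Ccl4* are no higher at 6 or more than at 2 to 3 DAM marker counts in VEH, and *Ccl12* goes from 227 to 8055 in VEH and 4660 in LEM.

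The difference between libraries was next taken within each state, which holds the share of states fixed. *Ccl6* was lower in LEM in homeostatic-gated (log2 ratio -0.83), DAM-gated (-0.49), interferon-gated (-0.50), mitotic-gated (-0.80), MHC class II-gated (-0.93) and BAM-gated cells (-1.15) and in the other microglia (-0.89), each with an interval below 0. *Cxcl16* was higher in the same states (0.23 to 0.66) except BAM-gated cells (-0.14, -0.67 to 0.42). *Ccl9* was lower in homeostatic-gated cells (-0.56) but not in DAM-gated cells (0.03, -0.18 to 0.23). *Ccl12* was close in homeostatic-gated cells (0.01, -0.02 to 0.04) and lower in LEM in interferon-gated cells (-0.49, -0.54 to -0.43). *Ccl4* was lower in LEM in DAM-gated cells (-0.43) where *Ccl3* was not (0.01, -0.04 to 0.06). There the ratio of *Ccl3* to *Ccl4* counts was 0.742 in VEH and 1.00 in LEM, against 0.846 and 0.871 in homeostatic-gated cells. *Ccl5* was higher in LEM in homeostatic-gated (1.78), interferon-gated (2.99), MHC class II-gated cells (2.93) and the other microglia (2.46). In DAM-gated cells the ratio was 2.72 with and -0.21 (-1.19 to 0.79) without the highest cell of each library. Male DAM-gated cells alone, with 43 VEH and 6 LEM counts, were lower in LEM (-2.97, -4.49 to -1.73).

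The sexes also differed within a library, between cells of different mice of the same pool. *Ccl6* was higher in female than male cells by a log2 ratio of 0.54 in VEH and 0.55 in LEM, and *Ccl9* by 0.56 and 0.76. *Cxcl16* was lower in female cells, by ratios of -0.26 and -0.22. The female excess of *Ccl3* was 0.10 in VEH and 0.50 in LEM, and that of *Ccl5* was -0.40 (-0.90 to 0.08) and 2.05, or -0.12 (-0.65 to 0.41) and 1.53 (1.33 to 1.74) without the highest cell of each sex. These ratios are as large as several of the differences between the libraries.

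Which chemokines the same cell held was asked in homeostatic-gated cells thinned to 2000 counts (14249 VEH and 18707 LEM cells). In these, 32.4% of VEH and 35.7% of LEM cells had none of the 10 and 0.590% and 0.465% had 5 or more. In DAM-gated cells 2.76% and 6.98% had none, and in interferon-gated cells 7.07% and 9.97%. Of the 45 pairs, 2 were found together with an odds ratio of at least 2 in both libraries, against 0.138% of the pairs of these genes with any other gene. *Ccl3* and *Ccl4* were together in 1194 VEH cells, where independence would give 545, and in 1608 LEM cells against 711, for odds ratios of 4.65 and 5.03. *Ccl2* and *Ccl7* were together in 18 VEH and 26 LEM cells, against 5.05 and 4.33, for odds ratios of 4.55 and 9.42. The genes of each pair lie in the same group on chromosome 11. Among pairs with at least 5 cells holding both genes in each library, the 12 that share such a group had median odds ratios of 1.66 in VEH and 1.47 in LEM, and the 21 other pairs 1.16 and 1.13. *Ccl6* and *Ccl9*, which lie side by side, had odds ratios of 1.6 and 1.53. The count of pairs depended on the cut: 5 pairs passed at 2 counts for detection and 11 in all cells, and *Ccl3* and *Ccl4* were among them in each alternative. The share of pairs with any other gene was not taken at these other cuts.

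**Figure D5:**
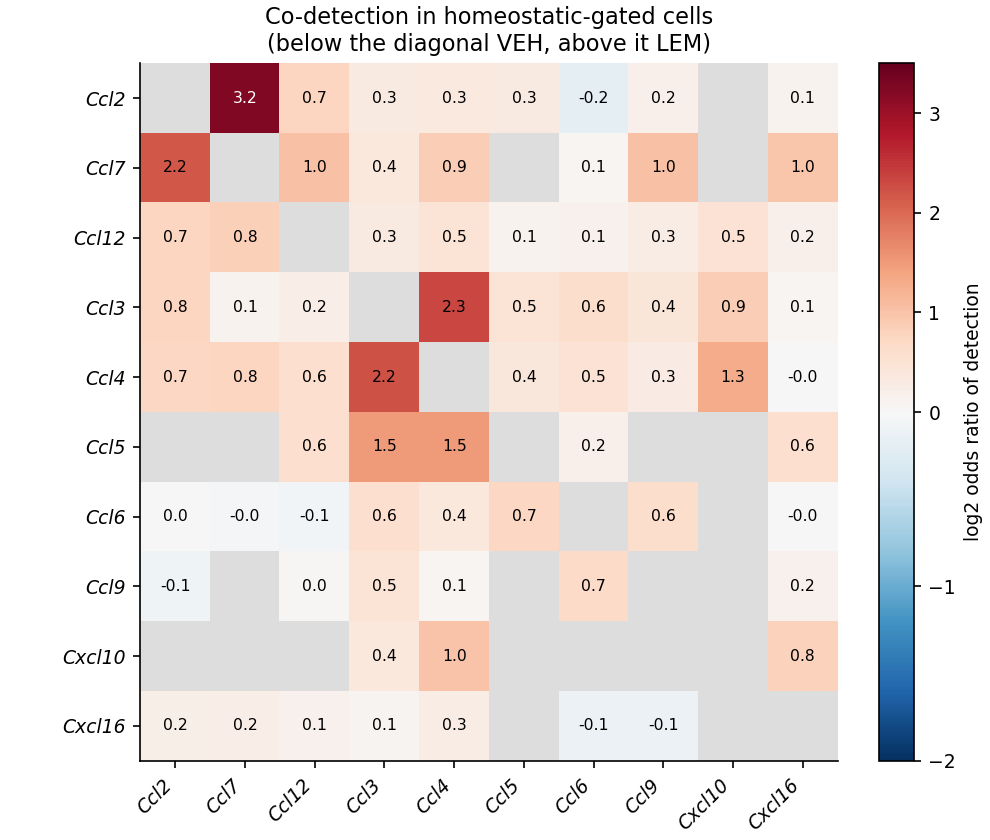
log2 odds ratio of finding 2 chemokines in the same homeostatic-gated cell thinned to 2000 counts, with VEH below and LEM above the diagonal. Grey fields had fewer than 5 cells with both. *Ccl3* with *Ccl4* (odds ratios 4.65 and 5.03) and *Ccl2* with *Ccl7* (4.55 and 9.42) stand above the other pairs that are not grey.

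Genes whose log counts, scaled for each cell's total, followed a member most closely across microglia were listed as a description. These correlations over cells share each cell's depth and come from sparse counts. *Ccl3* was followed most closely by *Ccl4* (Pearson's r 0.49 in VEH and 0.49 in LEM) and then by *Cd63* (0.27 and 0.26), *Cd9*, *Ctsb* and *Cst7*, which are genes high in DAM. *Ccl6* was followed by *Cst7* (0.28 and 0.27), *Baiap2l2*, *Lpl*, *E230016K23Rik* (0.23 and 0.22), which overlaps it on the other strand, and *Cd9*, *Ccl12* by *Ifit3* (0.22 and 0.21) and *Cxcl10* by *Ifit1* (0.30 and 0.28). For *Ccl2* only *Gm17268*, which overlaps it on the other strand, reached 0.2 in both libraries (0.32 and 0.33). No gene did so for *Ccl5*, *Ccl7*, *Ccl9* and *Cxcl16*.

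Immediate early genes such as *Fos*, *Jun* and *Egr1* are induced quickly on stimulation and on tissue dissociation, so the chemokines were set against the summed counts of 12 of them. The 25% of homeostatic-gated thinned cells with the fewest and the 25% with the most averaged 16.0 and 55.4 such counts in VEH and 15.0 and 49.6 in LEM. By this split 0 of the 10 genes were at least 2-fold higher in both libraries in the cells with the most, and 0.37% of all genes tested were. *Cxcl10* was 15.0-fold higher in VEH, from 1 and 15 counts, and 1.6-fold in LEM, from 10 and 16. *Ccl2* stood at 34.7 and 93.5 CPM in the cells with the fewest and the most in VEH (2.70-fold) and 41.3 and 73.4 in LEM (1.78-fold). *Ccl12* (1.64-fold and 1.51-fold), *Ccl3* (1.79-fold and 1.51-fold) and *Ccl4* (1.81-fold and 1.48-fold) were higher in both, with intervals above 1. *Ccl6* (1.02-fold and 0.941-fold) and *Cxcl16* (1.06-fold and 0.933-fold) had intervals that include 1. With 10% of cells at either end in place of 25%, *Ccl2* (5.32-fold and 3.2-fold), *Ccl12*, *Ccl3* and *Ccl4* were past 2-fold in both libraries. The share of all genes past 2-fold was not taken at 10%. In all cells in place of homeostatic-gated cells the folds at 25% were lower, at 1.25 and 1.16 for *Ccl12*, 1.2 and 1.11 for *Ccl3*, 1.14 and 1.04 for *Ccl4* and 2.08 and 1.76 for *Ccl2*. The part of cell handling in these levels was not tested.

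The other genes of the chemokine system were mostly not found. Among 26 other ligands of the table, 3 had a count in at least 1% of the cells of a library, *Ccl24*, *Ccl25* and *Ccl27a*, and so did the receptors *Ccr2*, *Ccr6*, *Ccr9*, *Ccrl2* and *Cx3cr1*. None of these 8 was past 1.5-fold between the libraries. *Cx3cr1*, the fractalkine receptor of microglia, stood at 3253 and 3240 CPM in homeostatic-gated and at 1795 and 1781 in DAM-gated cells, so it was lower in the cells in which *Ccl3* and *Ccl4* were higher. *Ccr6*, the receptor of CCL20, stood at 207 and 183 CPM in homeostatic-gated and at 95.8 and 87.1 in DAM-gated cells. *Ccr2*, the receptor of the CCR2 ligands, was at 4.88 and 4.98 CPM in all cells and at 99.2 and 78.2 in BAM-gated cells. *Adam10* and *Adam17*, proteases that shed CXCL16, were found at 211 and 193 CPM and at 155 and 159 CPM. Of 14 NF-kB targets and cytokines 14 were detected and 0 were past 1.5-fold between libraries, with a median log2 ratio of -0.08. Among them *Il1b* (0.27) and *Il6* (0.28) had the highest ratios and *Nfkbid* (-0.22) the lowest.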

How the data were processed

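RNA was measured in 2 pooled libraries, 1 per treatment. The deposited values are counts of unique molecular identifiers per gene and cell, which the authors made by aligning to mm10 in Cell Ranger 8.0.0, followed by removal of cells with few genes, many counts or a high mitochondrial share. The study's methods name a correction for ambient RNA, and whether it is in these counts and whether counting used strand are not given in the sources used here. The deposited cells hold at least 501 genes and at most 19999 counts and 2.5% mitochondrial counts. Cell names carry no barcode sequence, so barcodes shared by the libraries could not be counted.

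Groups came from the sample labels. For CPM, a gene's counts in all cells of a library, gate or sex were divided by the total of those cells. Intervals are exact at 95% (Poisson for CPM, Clopper-Pearson for shares, conditional binomial for ratios), and identifiers remove most but not all amplification duplicates. A cell took the first gate it met, in the order choroid plexus, T and NK, BAM, monocyte and neutrophil, mitotic, interferon, DAM, MHC class II, homeostatic. Homeostatic cells had at least 3 *P2ry12* counts and at most 1 count of each of the DAM, interferon and mitotic lists. *Clec7a* was not used here. Some genes of the fixed lists are not reported here. Cells were called female by *Xist* and male by Y-linked counts. Genes were compared where at least 1% of the cells of a library had a count. Cells below 2000 counts, 1305 in VEH (7.10%) and 1215 in LEM (4.98%), were left out of thinned values. Odds ratios had 0.5 added to each field and needed 5 cells with both genes. Doublets were kept, and leaving out the highest 10% of Scrublet scores was an alternative, since the automatic threshold marked 0 VEH and 3113 LEM cells. All 10 genes are named, with the detected genes of the other lists and up to 5 genes of r at least 0.2 for each. The genes and lists were chosen with earlier results of these data known. Scripts were tested on simulated data and used scanpy 1.11.5 and scipy 1.17.1 under Python 3.11.15, with figures from matplotlib 3.10.9.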

Additional observations from a re-analysis of the deposited data

Results flagged for a closer look

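*Ccl3* differed in direction between the sexes. Its log2 ratio of LEM over VEH was 0.15 in female cells, where LEM was higher, and -0.25 in male cells, where LEM was lower. In homeostatic-gated cells alone it was 0.12 in female and -0.13 in male cells. The difference between the sexes was not tested, since each treatment is 1 library and the number of mice of each sex behind the cells is not known here.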

How the results depend on the processing

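No paired analysis was possible because each treatment has 1 library, and no replicate was left out for the same reason. Across the alternatives, 73 of 120 library ratios moved by less than their counting interval, 41 by more and 6 changed sign, and of 395 state ratios these were 241, 147 and 7. Of 20 shares of cells 14 and 6 did so with none changing sign, and of 60 counts and medians 47 stayed within the limit set for them. The alternatives that cap or leave out cells of many counts were chosen after seeing the data. The cause of the changes that follow was not tested.

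Between libraries, 4 of the 10 genes passed 1.5-fold in male cells (3.59% of all genes tested there), and the median log2 ratio was -0.24 in male cells, -0.12 with the sexes weighted equally, -0.033 with counts capped at 5 per cell and -0.017 without cells of 10 or more counts. In female cells the ratio was 0.040 for *Ccl2* and 0.15 for *Ccl3*. For *Cxcl10* it was -0.58 in homeostatic-gated, -0.18 in female and -0.37 in male cells and -0.27 with the sexes weighted equally.

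In DAM-gated cells 3 genes passed 2-fold with counts capped at 5 (2.56% of all genes). The log2 ratio to homeostatic-gated cells changed sign for *Ccl2* in male VEH (0.084) and female LEM cells (0.22). It also did so for *Ccl5* in female VEH (-0.30, from 1 count) and male LEM cells (-0.011, from 6 counts). In interferon-gated cells 4 genes passed among genes found in 10% of cells (1.45% of all such genes), and *Ccl6* in VEH was at -0.14 with capped counts. In BAM-gated cells 2 genes passed in female cells (3.26% of all genes), 2 with capped counts (3.02%), 2 among genes found in 10% of cells (1.01% of such genes) and 4, with *Ccl2*, in male cells (3.8%) and with lower or higher gate counts. No share over all genes was taken at the lower or higher gate counts. In BAM-gated cells *Ccl2* was at -0.40 in female VEH cells, from 2 counts, and *Ccl3* at 0.29 in LEM with capped counts.

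The 2 pairs found together became 5 at 2 counts for detection, 4 in cells as deposited, 11 in all cells and 1 in female cells. The 0 genes past 2-fold with immediate early genes became 1 in cells as deposited and 4 with 10% of cells at either end in place of 25%. For pairs and for immediate early genes, the shares over all genes (0.138% and 0.37%) were taken at the main settings only. The counts at the other settings therefore have no share to be read against.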

Other observations

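Cells of the MHC class II gate (*H2-Aa*, *H2-Ab1* and *H2-Eb1*, at least 3 counts over at least 2 genes) numbered 211 in VEH and 153 in LEM. Against homeostatic-gated cells, *Ccl6* was 3.01-fold and 2.82-fold higher in them, *Ccl3* 2.94-fold and 2.6-fold, *Ccl4* 2.89-fold and 2.5-fold and *Cxcl16* 2.03-fold and 2.04-fold. *Ccl5* was 7.64-fold and 17.0-fold higher, from 11 and 65 counts. *Ccl12* stood at 1.23-fold in VEH and 0.880-fold in LEM. The gate lies low on its marker range, with 388 VEH and 393 LEM cells within 1 count of it.

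The 31 LEM cells with at least 10 *Ccl5* counts held *Cd74*, the invariant chain of MHC class II, in 87.1% of cases, against 21.0% of the library, and *Ifit3* in 35.5%, against 4.98%. These cells had a median of 10852 counts, above the library's 6034, and the part of depth was not tested. Of the 18 VEH and 30 LEM cells with at least 10 *Cxcl10* counts, 14 and 24 held *Ifit3*.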
